A study of Mus musculus with 4 samples.

Results

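Esx1, Rhox5, Rhox6 and Rhox9 are X-linked genes that encode homeobox proteins of the paired-like class, and all 4 are known from the mouse placenta. They are 4 of the 55401 genes in the read count table, taken as a list of named symbols and found through the GENCODE M21 annotation. The list was drawn up from their levels in this comparison, so the difference between the groups is given for them as a description, with no test. Both groups are R1 mouse embryonic stem cells grown on gelatin in N2B27 medium with the MEK inhibitor PD0325901, the GSK3 inhibitor CHIR99021 and LIF, the condition called 2i/LIF. The Usp28 KO group, labelled as a knockout of the deubiquitinase gene Usp28, and the control group, labelled wild type, had 2 libraries each. The labels do not say how the knockout was made, nor whether the libraries of a group are separate clones or cultures, so the spread between them may be technical.

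Homeobox proteins bind DNA through a homeodomain and act as transcription factors. The Rhox (reproductive homeobox) genes form one cluster on the mouse X chromosome, whose members are used in the placenta, the testis, the ovary and the germ line. In the mouse embryo itself much of the cluster is known to be kept silent with the help of DNA methylation, while extraembryonic lineages use it. Esx1 lies on its own, far along the same chromosome, and is known for its role in the labyrinth of the mouse placenta and its expression in male germ cells. Rhox5, first described as Pem, is the founding gene of the cluster and is active in extraembryonic tissue and in Sertoli cells. Rhox6 and Rhox9, first described as Psx1 and Psx2, are near copies of each other.

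On mm10, Esx1 (ENSMUSG00000023443) spans chromosome X, 137115397 to 137122083, on the minus strand. Rhox5 (ENSMUSG00000095180) spans 37804842 to 37808876 on the plus strand, Rhox6 (ENSMUSG00000006200) 37826910 to 37829857 on the plus strand and Rhox9 (ENSMUSG00000068048) 37899097 to 37901770 on the minus strand. Rhox6 starts 18.0 kb after the end of Rhox5, and Rhox9 starts 69.2 kb after Rhox6. Esx1 lies 98.8 Mb beyond the Rhox cluster. The table lists 0 other genes that overlap any of the 4.

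The 4 genes share a feature of gene structure, a coding exon of 46 bases. This exon lies inside the part of the gene that encodes the homeodomain. The 4 were listed together as homeobox genes, so sharing it is not independent of their choice. A coding exon part of exactly 46 bases was annotated in 34 of 34 coding Rhox genes and in Esx1, against 865 of 22527 coding genes, or 3.84%. The share among other paired-like homeobox genes was not counted. The exons are shown because they carry the likeness within the group. They are from the GENCODE M21 transcripts, 5′ to 3′ in the sense of the gene, with capitals where all 4 have the same base. The Esx1 exon lies at chrX:137117258-137117303 on the minus strand, the Rhox5 exon at chrX:37806074-37806119 on the plus strand, the Rhox6 exon at chrX:37828415-37828460 on the plus strand and the Rhox9 exon at chrX:37900280-37900325 on the minus strand.
Esx1: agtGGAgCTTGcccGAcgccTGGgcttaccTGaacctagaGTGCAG
Rhox5: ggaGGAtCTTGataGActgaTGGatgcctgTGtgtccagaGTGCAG
Rhox6: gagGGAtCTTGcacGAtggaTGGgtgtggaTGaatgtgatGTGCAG
Rhox9: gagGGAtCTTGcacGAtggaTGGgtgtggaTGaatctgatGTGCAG
All 4 had the same base at 20 of 46 positions. Rhox6 and Rhox9 were identical at 45 of 46, and Rhox5 matched them at 27 and 28. Esx1 matched Rhox5 at 26, Rhox6 at 28 and Rhox9 at 29. By this exon Esx1 stood about as far from Rhox6 and Rhox9 as Rhox5 did.

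Of the 4 genes, RefSeq promoter sequences (GRCm38.p6, which is mm10) were at hand for Esx1 and Rhox5, and none for Rhox6 and Rhox9. They run from 250 bases before the annotated start to 50 bases after it. They are shown because these are the 2 most abundant of the 4 transcripts and because CpG sites, the places where DNA methylation acts in mammals, can be read off them. Capitals mark CpG sites and the E-box CACGTG. The Esx1 promoter lies at chrX:137120277-137120576 on the minus strand and the Rhox5 promoter at chrX:37754358-37754657 on the plus strand.
Esx1: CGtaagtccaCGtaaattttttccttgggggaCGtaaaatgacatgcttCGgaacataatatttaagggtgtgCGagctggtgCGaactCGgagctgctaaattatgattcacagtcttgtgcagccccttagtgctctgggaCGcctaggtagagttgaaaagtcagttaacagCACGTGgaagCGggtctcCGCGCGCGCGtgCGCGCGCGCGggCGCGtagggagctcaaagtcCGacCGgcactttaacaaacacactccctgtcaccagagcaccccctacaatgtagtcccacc
Rhox5: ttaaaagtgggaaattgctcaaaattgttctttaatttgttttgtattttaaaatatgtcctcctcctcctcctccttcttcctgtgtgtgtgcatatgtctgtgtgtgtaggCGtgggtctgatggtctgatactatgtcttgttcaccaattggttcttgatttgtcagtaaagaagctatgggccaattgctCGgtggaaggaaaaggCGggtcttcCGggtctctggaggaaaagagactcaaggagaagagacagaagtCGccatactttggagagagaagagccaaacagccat
The Esx1 promoter held 24 CpG sites, and 20% of 32851 promoters of this length held at least as many. The Rhox5 promoter held 5, against a median of 7 over all promoters. Their GC contents were 54.0% and 43.7%, and the median over all promoters was 52.7%. Each promoter was searched on both strands for 5 more motifs: the E-box CACGTG, the GATA motif AGATAA, the ETS motif CCGGAA, the octamer ATGCAAAT and the homeodomain motif TAATTA. Esx1 held 1 E-box, starting at position -75 from the annotated start, a motif found in 7.15% of promoters. Its central bases are a CpG site, as in every copy of this motif. Rhox5 held 1 ETS motif at position -33, a motif found in 14.9% of promoters, whose sequence likewise always holds a CpG site. The GATA motif, the octamer and the homeodomain motif, held by 11.2%, 1.74% and 5.29% of promoters, were not in either window. RefSeq places the start of Rhox5 at 37754608, which is 50.2 kb before the first exon that the count table uses, so the Rhox5 reads below come from the exons after 37804842 and do not tell the starts apart.

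The libraries held 17996611 and 18709558 reads counted to genes in Usp28 KO replicates 1 and 2, and 19533608 and 16595196 in control replicates 1 and 2. Usp28 itself had 3392 and 3319 counts in the libraries labelled Usp28 KO and 3690 and 3120 in control libraries, so its read count does not check the labels. The pluripotency markers Pou5f1, Sox2, Nanog, Zfp42, Esrrb, Klf4, Tfcp2l1, Dppa5a, Tdgf1 and Fgf4 summed to 6280 and 6310 CPM in Usp28 KO libraries and to 6220 and 6470 CPM in control libraries, where CPM (counts-per-million) divides a gene's counts by its library's size after TMM scaling, which sets the libraries to a common level for most genes. Over all genes, edgeR's quasi-likelihood test called 0 of 15341 (0%) higher and 0 (0%) lower in Usp28 KO at an adjusted p under 0.05. At an unadjusted p under 0.05 it counted 1052 higher and 666 lower, and DESeq2 called 79 higher (0.578%) and 48 lower (0.351%) among 13668 genes. Since edgeR called 0 genes at the adjusted threshold, a count of 0 edgeR calls in a list below says nothing about that list. DESeq2 gave no adjusted p for some genes with few counts, so its calls in a list can cover fewer genes than edgeR tested.

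Esx1 was the member with the most reads and the largest difference between the groups. It had 153 and 100 counts in Usp28 KO libraries, against 28 and 27 in control libraries. That was 8.19 and 5.33 CPM in Usp28 KO libraries and 1.43 and 1.70 CPM in control libraries. Both Usp28 KO libraries lay well above both control libraries, and Usp28 KO replicate 1 was the highest. The means were 6.76 ± 2.02 CPM in Usp28 KO and 1.57 ± 0.190 CPM in control libraries (SD, n = 2 each), a log2 fold change of 2.11 ± 0.34 (edgeR fit, standard error). Sorted by log2 fold change, Esx1 stood in place 21 of 15341 tested genes. In RNA from whole cultures, more cells with a transcript and more transcript per cell cannot be told apart.

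Rhox5 had 62 and 71 counts in Usp28 KO libraries, against 23 and 24 in control libraries. The levels were 3.32 and 3.79 CPM in Usp28 KO libraries and 1.18 and 1.51 CPM in control libraries. The libraries of each group lay close together and the groups did not overlap. The means were 3.55 ± 0.333 CPM in Usp28 KO and 1.35 ± 0.238 CPM in control libraries (SD, n = 2 each), with a log2 fold change of 1.40 ± 0.37. Among the tested genes this was place 166.

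The near copies Rhox6 and Rhox9 were scarce. Rhox6 had 11 and 10 counts in Usp28 KO libraries, against 4 and 2 in control libraries, and did not pass the filter on low counts. Its level was 0.561 ± 0.0389 CPM in Usp28 KO and 0.165 ± 0.0556 CPM in control libraries (SD, n = 2 each), and a fit with no filter gave a log2 fold change of 1.69 ± 0.84. Rhox9 had 21 and 13 counts in Usp28 KO libraries, against 8 and 7 in control libraries. Its level was 0.908 ± 0.304 CPM in Usp28 KO and 0.425 ± 0.0226 CPM in control libraries (SD, n = 2 each), with a log2 fold change of 1.09 ± 0.57, place 403 among the tested genes. For both, the higher pair of values was in the Usp28 KO libraries. Rhox9 passed the filter only through its Usp28 KO libraries, since both control libraries had fewer than 10 counts.

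Counting error alone leaves wide margins for these genes. From the summed counts of each group, scaled to library size, Esx1 was 4.35-fold higher in Usp28 KO (253 counts) than in control (55 counts), with an exact 95% interval of 3.24 to 5.93. The Rhox5 ratio was 2.68 (1.91 to 3.82; 133 counts in Usp28 KO and 47 in control). The Rhox6 ratio was 3.31 (1.29 to 10.0; 21 counts in Usp28 KO and 6 in control). The Rhox9 ratio was 2.14 (1.14 to 4.23; 34 counts in Usp28 KO and 15 in control). These intervals cover counting error and not the spread between cultures, and reads without molecular identifiers are not independent molecules. They give the precision of the counts for genes chosen for these values, and are not a test against equal levels.

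**Figure D1:**
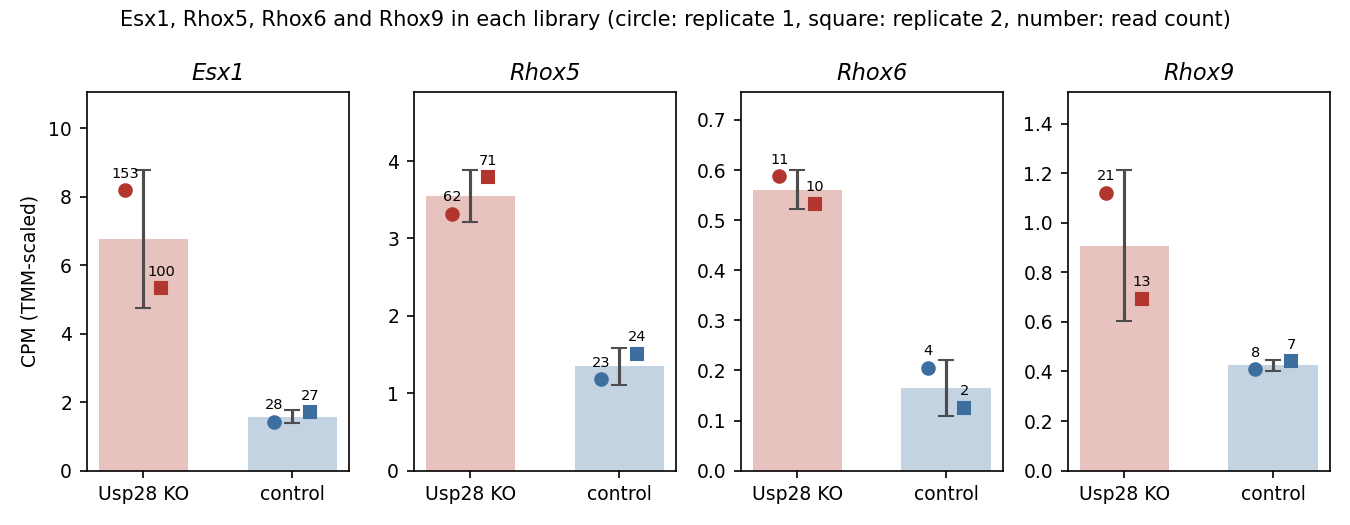
Levels of the 4 genes in CPM (TMM-scaled; each panel has its own axis, from 0). Bars are means with SD over 2 libraries, points are libraries with their read counts printed above them, Usp28 KO to the left of control. In each panel both Usp28 KO libraries lie above both control libraries, from 153 and 100 against 28 and 27 counts for Esx1 down to 11 and 10 against 4 and 2 counts for Rhox6.

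In 4 of 4 genes the groups did not overlap, with Usp28 KO higher. Of all tested genes, 21.4% had both Usp28 KO libraries above both control libraries and 20.4% had both below. All 4 members also had a log2 fold change of at least 1, as did 3.3% of tested genes. Because the genes were chosen from this comparison, nothing is read from these counts.

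Rhox5 and Esx1 were the main transcripts of the group once length was taken into account. In TPM (transcripts-per-million), which divides counts by exon length before scaling each library to the same total, Rhox5 stood at 15.2 and 17.1 in Usp28 KO libraries and at 5.28 and 6.42 in control libraries. Esx1 stood at 14.3 and 9.15 TPM in Usp28 KO libraries and at 2.44 and 2.74 TPM in control libraries. With the deposited exon lengths Rhox5 was thus above Esx1 in every library, although Esx1 has more reads. The gap was small in Usp28 KO replicate 1. The length of Esx1, 1985 bases, joins the exons of several annotated transcripts, and that of Rhox5, 754 bases, holds no exon before 37804842. Which of them is higher in that library therefore depends on the length used. Rhox6 stood at 2.02 and 1.80 TPM in Usp28 KO libraries and at 0.685 and 0.399 TPM in control libraries. Rhox9 stood at 1.56 and 0.949 TPM in Usp28 KO libraries and at 0.556 and 0.567 TPM in control libraries. With the deposited exon lengths the order was Rhox5, Esx1, Rhox6 and Rhox9 in the Usp28 KO libraries. In the control libraries, with the same lengths, the Rhox6 values lay on either side of those of Rhox9. The length of Rhox9, 2488 bases, takes in an annotated exon of 2315 bases that covers introns of its other annotated transcript. That of Rhox6 is 1010 bases. Rhox9 has more reads than Rhox6 in every library, so the order of these near copies depends on the length used. Mean TPM in Usp28 KO libraries was compared with that of the tested genes, also with the deposited lengths. Rhox5 was above 48.8% of them, Esx1 above 42.0%, Rhox6 above 13.1% and Rhox9 above 8.70%.

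**Figure D2:**
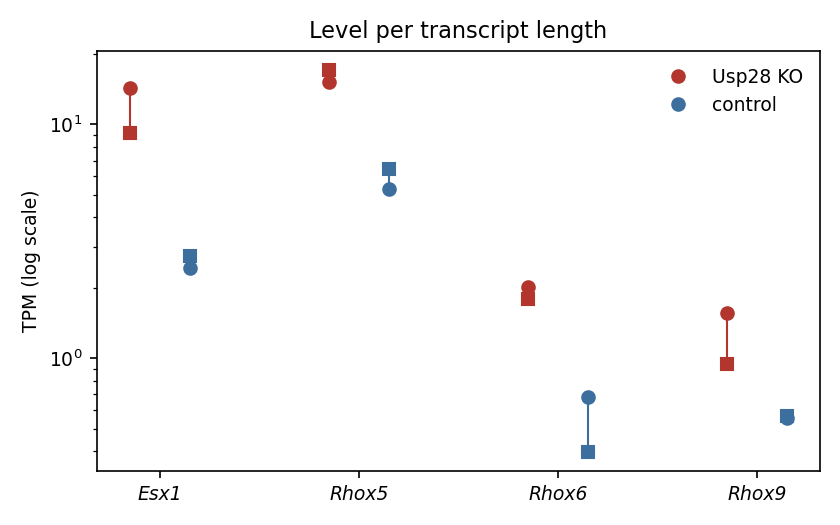
Levels per transcript length, in TPM on a log axis, for each library (circle, replicate 1; square, replicate 2), with Usp28 KO to the left of control for each gene. By the deposited exon lengths Rhox5 is the highest of the 4 in every library. It is at 15.2 and 17.1 TPM in Usp28 KO and 5.28 and 6.42 TPM in control libraries. With the same lengths Rhox6 and Rhox9 overlap in control libraries, and their order depends on the length used.

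The differences held their sign under every processing that was tried. Esx1 ran from 2.03 to 2.18 on the log2 scale over the other tests, scalings, filters and corrections, and from 1.77 to 2.39 with 1 library left out. The ranges for Rhox5 were 1.39 to 1.47 and 1.23 to 1.59. Rhox6 ranged from 1.63 to 1.75, and from 1.42 to 2.10 with a library left out. Rhox9 ranged from 1.08 to 1.15, and from 0.70 without Usp28 KO replicate 1 to 1.40 without Usp28 KO replicate 2, so 1 library decides how large its difference is. With each library's trend of counts on transcript GC content taken out, the log2 fold changes were 2.03 for Esx1, 1.39 for Rhox5, 1.63 for Rhox6 and 1.10 for Rhox9. A common sign does not add support, since groups that do not overlap keep it when a library is left out.

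**Figure D3:**
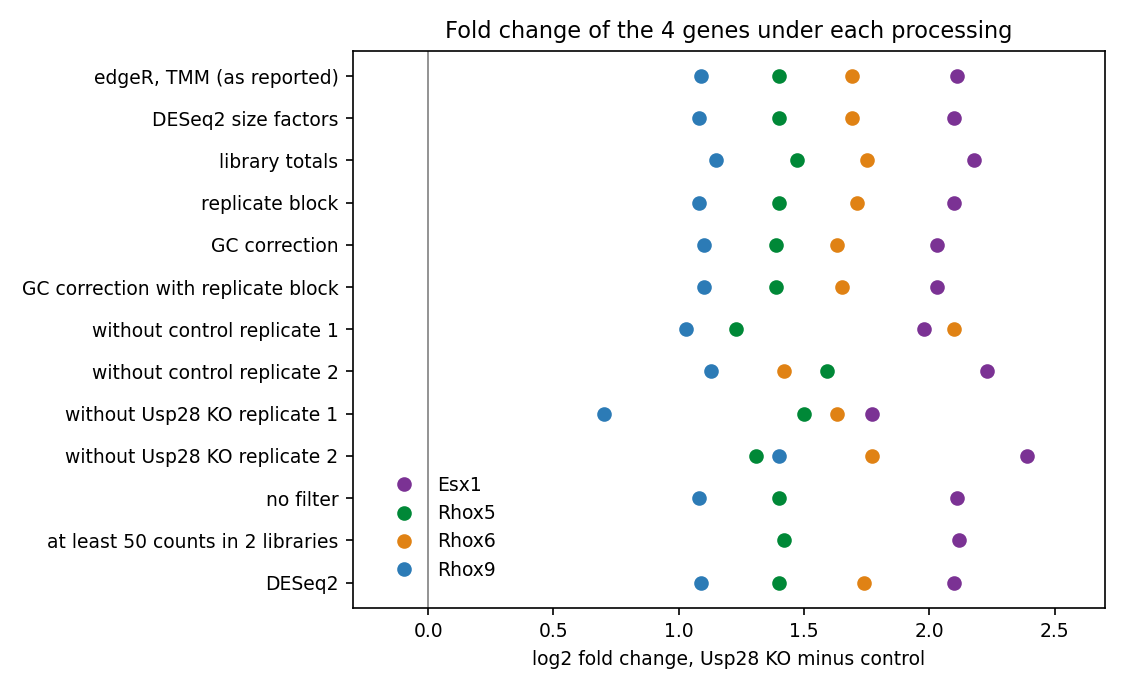
Log2 fold change (Usp28 KO minus control) of the 4 genes under each processing, with the values as reported in the top row; Rhox6, which did not pass the filter, is shown from fits with no filter, and a missing point means that the gene was not in that fit. All points lie to the right of 0, and those with a library left out spread most, from 0.70 to 1.40 for Rhox9.

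The rest of the Rhox cluster gave almost no reads. Of 42 annotated Rhox genes and pseudogenes, 39 were not members, 0 of these passed the filter, and 32 had no read in any library. The Rhox2, Rhox3 and Rhox4 genes are tandem copies, and 24 of these 25 copies were at 0 in all 4 libraries, while Rhox4g had 1 read in Usp28 KO replicate 2. Between 44.7% and 100% of the 50-base windows of their transcripts, with a median of 80.8%, also occurred in the transcript of another gene. How reads that match several places were treated is not given in the sources used here, so a count of 0 for these copies does not show that they were silent. Among the 14 other genes and pseudogenes outside those copies, 8 were at 0, and 6 of these 8 shared under 10% of their windows with other genes. For such a gene a count of 0 allows up to 3 counts, or 0.160 CPM in each Usp28 KO library and 0.154 and 0.189 CPM in control replicates 1 and 2.

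The other genes of the cluster with reads showed no common direction. Rhox13, a germ-line gene of the cluster, had 12 and 4 counts in Usp28 KO libraries and 6 and 4 in control libraries. Rhox1 had 8 and 1 counts in Usp28 KO libraries and 8 and 4 in control libraries. The groups overlapped for both. The pseudogene Rhox2-ps had 5 and 2 counts in Usp28 KO libraries and 0 and 1 in control libraries, and the pseudogene Rhox7-ps1 had 0 in both Usp28 KO libraries and 2 and 3 in control libraries. Rhox7a had 2 reads in control replicate 1 and Rhox10 had 1 in Usp28 KO replicate 1. Over the cluster without Rhox5, Rhox6 and Rhox9 the sum was 26 and 8 counts in Usp28 KO libraries and 18 and 12 in control libraries. The same sum for Rhox5, Rhox6 and Rhox9 was 94 and 94 counts in Usp28 KO libraries and 35 and 33 in control libraries.

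Rhox6 and Rhox9 are themselves uncertain to a degree, since 16.5% of the windows of Rhox6 also occur in Rhox9 and 6.28% of those of Rhox9 in Rhox6. Reads from those stretches could be counted to either or dropped. Esx1 and Rhox5 shared 0% of their windows with any other gene, so their counts do not carry this doubt.

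**Figure D4:**
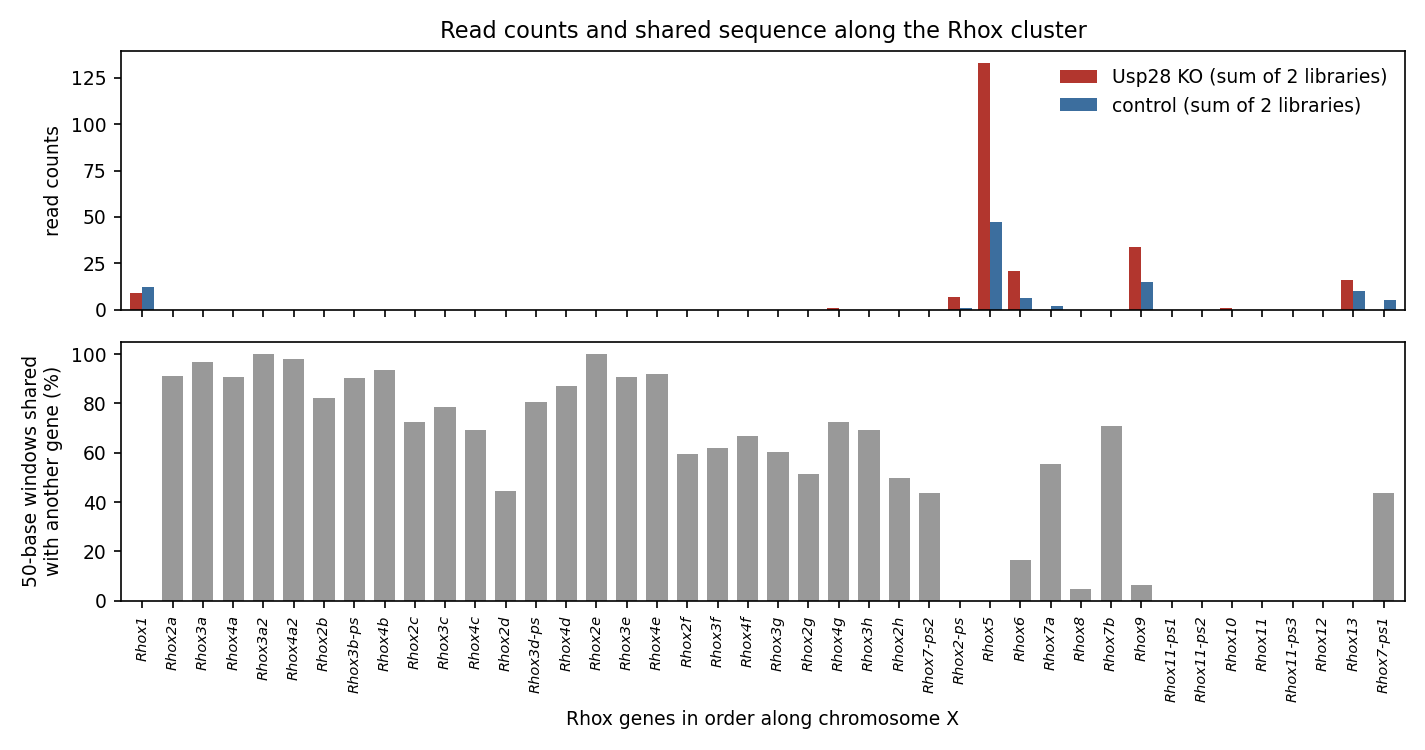
Rhox genes in their order along chromosome X, with read counts summed over the 2 libraries of each group (top; Usp28 KO to the left of control) and the percent of 50-base transcript windows found in another gene (bottom). Rhox5 has 133 counts in Usp28 KO and 47 in control libraries and shares no window, while the Rhox2, Rhox3 and Rhox4 copies share 44.7% to 100% and are almost all at 0.

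The genes around the members were on balance close to level. Within 1 Mb of the Rhox cluster or of Esx1, 129 other genes were annotated and 35 were tested, 0 higher and 0 lower by edgeR, with 2 each way at an unadjusted p under 0.05 and 0 calls by DESeq2. Their median log2 fold change was -0.05, and that of all tested genes was 0.00. Around the Rhox cluster the 22 tested genes ran from -0.45 for Nkrf to 0.77 for Lonrf3. Around Esx1 the 13 tested genes ran from -0.57 for Tceal8 to 1.10 for Tceal3. None of these 35 log2 fold changes reached that of Rhox5, and only Tceal3 (1.10) passed that of Rhox9 (1.09). Among all 15341 tested genes Rhox5 and Rhox9 stood in places 166 and 403. The members were chosen from this comparison, and few genes of any list would reach such places, so nothing is read from this.

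The nearest neighbours on either side are given by their levels, since edgeR called 0 of all tested genes. The nearest tested gene before the cluster was Rnf113a1, 21.3 kb away, at 6.76 ± 0.0237 CPM in Usp28 KO and 5.49 ± 0.887 CPM in control libraries (SD, n = 2 each; edgeR, adjusted p = 0.729). Zbtb33, which encodes the methyl-CpG binding protein Kaiso and lies within the span of the cluster, stood at 13.5 ± 0.406 CPM in Usp28 KO and 16.3 ± 2.55 CPM in control libraries (edgeR, adjusted p = 0.702). Lamp2, a lysosomal membrane protein gene 95.3 kb after the cluster, stood at 102 ± 4.43 CPM in Usp28 KO and 111 ± 31.5 CPM in control libraries (edgeR, adjusted p = 0.881). On one side of Esx1 the nearest was Fam199x, 32.9 kb away, at 29.8 ± 7.54 CPM in Usp28 KO and 26.0 ± 1.10 CPM in control libraries (edgeR, adjusted p = 0.784). On the other side it was Nrk, a kinase gene known from the mouse placenta, 1790 kb away, at 3.07 ± 0.195 CPM in Usp28 KO and 1.76 ± 0.179 CPM in control libraries (edgeR, log2 fold change 0.80 ± 0.35 and adjusted p = 0.426). Its groups did not overlap, and 21.4% of all tested genes likewise had both Usp28 KO libraries above both control libraries.

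**Figure D5:**
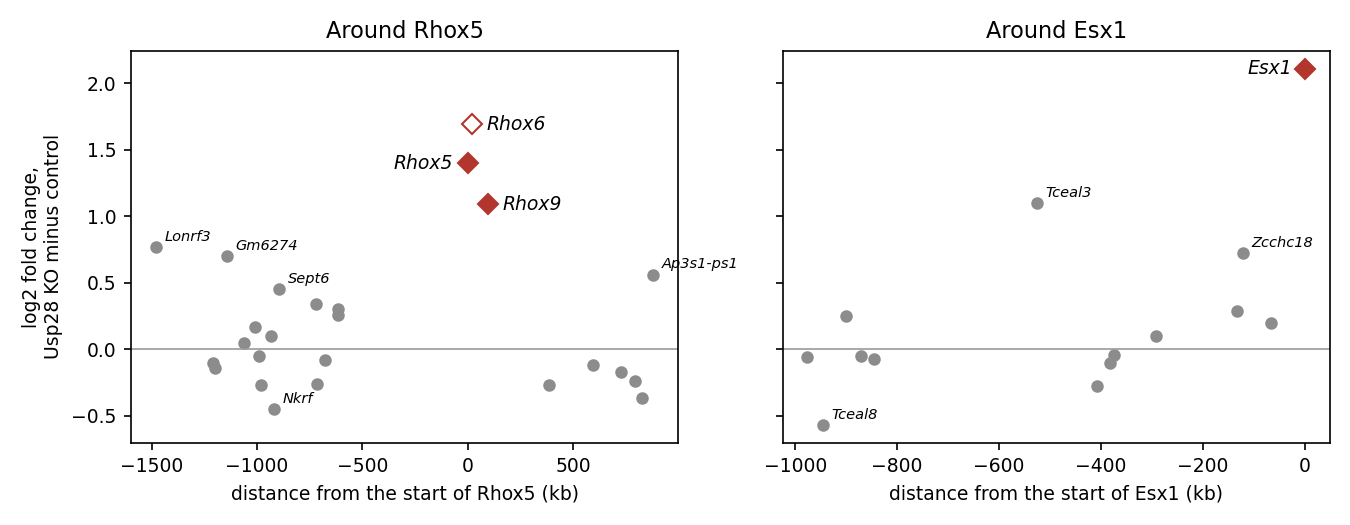
Log2 fold change (Usp28 KO minus control) of tested genes within 1 Mb of the Rhox cluster (left) and of Esx1 (right), by distance in kb from the start of Rhox5 or Esx1; grey points are neighbours and red diamonds the 4 genes, with Rhox6 open because it did not pass the filter. The neighbours run from -0.57 to 1.10, and Esx1, chosen from this comparison like the other red diamonds, stands at 2.11.

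Chromosome X as a whole took a like share of reads in both groups. The share was 3.00% and 2.87% in Usp28 KO libraries and 2.91% and 2.93% in control libraries. Of its 522 tested genes other than the members, edgeR called 0 either way (34 higher and 27 lower at an unadjusted p under 0.05), DESeq2 called 2 higher and 0 lower, and the median log2 fold change was -0.04. The smallest p-values were those of Tspan7, Gm4779, Pcsk1n and 8030474K03Rik, with log2 fold changes of 1.47, 1.31, 1.42 and 1.51. Tspan7, a membrane tetraspanin gene, stood at 14.5 ± 1.99 CPM in Usp28 KO and 5.25 ± 1.13 CPM in control libraries (edgeR, adjusted p = 0.0611; DESeq2, adjusted p = 0.00130).

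The trophoblast list summed to like levels in the groups, with some of its genes without a read and others well expressed. Of 32 trophoblast genes, 27 had a read and 16 were tested; edgeR called 0 higher and 0 lower, DESeq2 also called 0, and the median log2 fold change was 0.08. Tpbpa, Prl3d1, Prl3b1, Synb and Plac1 had no read in any library. Cdx2, the trophectoderm master regulator, stood at 0 in both Usp28 KO libraries and at 0.102 and 0 CPM in control replicates 1 and 2. Elf5 stood at 0 and 0.107 CPM in Usp28 KO libraries and at 0.0512 and 0 CPM in control libraries, and Gata3 at 0.0535 and 0.107 CPM in Usp28 KO libraries and at 0 and 0.126 CPM in control libraries. Hand1, a regulator of giant cells, was between 0.214 and 0.320 CPM in all 4 libraries. Krt7, also not tested, had 5 and 8 counts in Usp28 KO libraries and 0 and 3 in control libraries. Dlx3, not tested either, had 7 and 10 counts in Usp28 KO libraries and 4 and 3 in control libraries. Other regulators of the list were well expressed in both groups. Tead4 stood at 55.3 and 83.6 CPM in Usp28 KO libraries and at 70.7 and 78.8 CPM in control libraries. Tfap2c stood at 137 ± 20.2 CPM in Usp28 KO and 144 ± 22.5 CPM in control libraries, and Eomes at 16.2 ± 5.25 CPM in Usp28 KO and 15.9 ± 4.50 CPM in control libraries (SD, n = 2 each). The imprinted gene Peg10 stood at 160 ± 24.0 CPM in Usp28 KO and 169 ± 6.56 CPM in control libraries, and Ets2 at 18.2 ± 1.55 CPM in Usp28 KO and 16.8 ± 3.20 CPM in control libraries. The whole list summed to 453 and 487 CPM in Usp28 KO libraries and to 463 and 505 CPM in control libraries. Peg10, Tfap2c and Tead4 carried most of this sum, so it does not describe the genes of the list with low levels.

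Of the trophoblast genes with the smallest p-values, Ascl2, Krt18 and Krt8 were higher in Usp28 KO and Tfap2a was lower. The log2 fold changes of Ascl2 and Tfap2a were 1.68 ± 0.65 and -0.99 ± 0.33. Over the 16 tested genes of the list 10 were positive, against 7584 of 15341 over all tested genes. Ascl2, needed for the spongiotrophoblast, stood at 1.12 ± 0.375 CPM in Usp28 KO and 0.361 ± 0.293 CPM in control libraries (SD, n = 2 each; edgeR, adjusted p = 0.348). The counts of Ascl2 were 16 and 26 in Usp28 KO libraries and 3 and 9 in control libraries. Like Rhox9, Ascl2 passed the filter only through its Usp28 KO libraries. The keratin genes Krt18 and Krt8 had log2 fold changes of 0.79 ± 0.32 and 0.36 ± 0.23. Tfap2a stood at 3.39 ± 0.786 CPM in Usp28 KO and 6.75 ± 2.31 CPM in control libraries (edgeR, adjusted p = 0.290). Markers of other cell types that such cultures could hold also gave 0 edgeR calls, as did all tested genes, and DESeq2 called 0 of them. Of 15 primitive endoderm genes 10 were tested, with a median of 0.01 and sums of 662 and 820 CPM in Usp28 KO libraries and 819 and 905 CPM in control libraries. In that list Lamb1 was at 0.45 ± 0.19, Sox7 at -1.43 ± 0.65, Col4a1 at -0.47 ± 0.25 and Lamc1 at -0.30 ± 0.19 on the log2 scale. Of 10 fibroblast genes 5 had no read in any library and 2 were tested, Pdgfrb and Thy1, with log2 fold changes of 0.68 ± 0.33 and 0.42 ± 0.59. The fibroblast sum was 5.24 and 8.16 CPM in Usp28 KO libraries and 3.63 and 5.11 CPM in control libraries. The part of these low levels in the values of the 4 genes was not tested. Of the 10 pluripotency markers, all tested, edgeR and DESeq2 called 0, with a median of 0.01; Tfcp2l1, Fgf4, Tdgf1 and Dppa5a had log2 fold changes of -0.54, 0.43, 0.40 and 0.48.

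Genes of DNA methylation and gene silencing, machinery known to act on the Rhox cluster, were listed together with genes of DNA demethylation. Of 26 such genes 22 were tested, and 7 of these had a positive log2 fold change, against 7584 of 15341 over all tested genes. The median was -0.12, against 0.00 over all tested genes. By edgeR 0 were called higher and 0 lower (0 each way at an unadjusted p under 0.05), and DESeq2 called 0. The list summed to 4730 and 4850 CPM in Usp28 KO libraries and to 5180 and 5350 CPM in control libraries, without overlap. Of single tested genes, 20.4% likewise had both Usp28 KO libraries below both control libraries. Such a sum follows the highly expressed genes of the list and does not describe the others. Hells, a chromatin remodeller needed for DNA methylation, stood at 269 ± 3.58 CPM in Usp28 KO and 341 ± 67.5 CPM in control libraries (SD, n = 2 each; edgeR, adjusted p = 0.509). The linker histone gene Hist1h1c was at 0.70 ± 0.37, the demethylation enzyme gene Tet2 at -0.35 ± 0.21 and the methyltransferase gene Dnmt3a at 0.30 ± 0.20 on the log2 scale. Tet1 and Tet3, of the same family as Tet2, were at -0.25 and -0.47. The methylation genes Dnmt1, Dnmt3b, Dnmt3l and Uhrf1 were at -0.01, -0.15, 0.06 and -0.06. The list thus mixes opposite activities, and its median describes neither. The measurement is of RNA, and DNA methylation itself was not measured.

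Among germ-line genes, where several members of the cluster are also active, 37 were listed, 31 had a read and 23 were tested. By edgeR 0 were higher and 0 lower, with 2 each way at an unadjusted p under 0.05, and DESeq2 called 1 higher and 0 lower. The median log2 fold change was 0.38, against 0.00 over all tested genes, and 17 of 23 were positive, against 7584 of 15341. Dppa3, a gene of early embryos and germ cells, stood at 15.7 ± 2.41 CPM in Usp28 KO and 5.03 ± 1.90 CPM in control libraries (SD, n = 2 each; edgeR, adjusted p = 0.0611; DESeq2, adjusted p = 0.000716). The other germ-line genes with the smallest p-values lay on both sides. Prdm1 and Nanos3, regulators of primordial germ cells, were at -0.74 ± 0.25 and -0.68 ± 0.29, and Piwil2, a gene of the piRNA pathway, was at 0.61 ± 0.27. The list's summed level was 723 and 760 CPM in Usp28 KO libraries and 827 and 879 CPM in control libraries, so the median and the sum differ in direction. Zfp42, which is in that list and is also a pluripotency gene, was at -0.33 on the log2 scale. It stood at 493 and 541 CPM in Usp28 KO libraries and at 645 and 654 CPM in control libraries. That is most of the sum in each library, so the lower sum mainly follows Zfp42 and does not describe the other genes of the list.

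Most homeobox genes of the same class elsewhere in the genome had too few reads for the test. Of 35 paired-like homeobox genes outside the members' loci, 25 had a read and 10 were tested, with 0 calls by edgeR and a median log2 fold change of 0.01. DESeq2 also called 0, but gave no adjusted p for several of the 10. Phox2a, a neuronal factor gene, stood at 3.52 ± 1.13 CPM in Usp28 KO and 1.47 ± 0.416 CPM in control libraries (SD, n = 2 each; edgeR, adjusted p = 0.251). Dmbx1, Otx1 and Shox2 were at -0.80 ± 0.40, -0.49 ± 0.50 and -0.49 ± 0.62 on the log2 scale. A list of 16 transcription factor genes held mainly ETS, GATA and SP factors; 14 were tested, with 0 calls by edgeR, 1 lower call by DESeq2 and a median of -0.02. The lower call was Etv4, at 3.63 ± 0.597 CPM in Usp28 KO and 10.8 ± 2.17 CPM in control libraries (edgeR, adjusted p = 0.0611; DESeq2, adjusted p = 0.00267). The ETS factor gene Gabpa was at -0.28 ± 0.18 and the SP factor gene Sp3 at -0.22 ± 0.15.

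The members' own patterns over the 4 libraries were compared as the root mean square difference of centred log2 CPM, where 0 means the same pattern. Rhox5 and Rhox6 were the closest pair at 0.287, and Esx1 and Rhox9 the farthest at 0.558. With the low counts of Rhox6 and Rhox9, the prior count of 2 itself shapes their distances. Among 13716 tested genes averaging at least 1 CPM, each member that was tested had closer matches outside the group. With so many genes searched, against few other members, this was all but certain, so nothing is read from it. For Esx1 the closest matches were Got1l1 (0.103), Dll1 (0.123), Rasd1 (0.126), Jsrp1 (0.128) and 1700029J07Rik (0.192). Got1l1, the closest, had 295 and 230 counts in Usp28 KO libraries and averaged 14.0 ± 2.48 CPM there, against 3.60 ± 0.610 CPM in control libraries (SD, n = 2 each). For Rhox5 they were Nxph4 (0.0533), Sbsn (0.0676), Cyp2u1 (0.0694), Adcy5 (0.0802) and Plekhg4 (0.0845), and for Rhox9 they were Hdgfl3 (0.0606), Shisa4 (0.0628), 1810062O18Rik (0.0664), Mmp23 (0.0745) and Ccdc158 (0.0799). Nxph4, the closest to Rhox5, averaged 10.3 ± 1.49 CPM in Usp28 KO and 4.19 ± 0.855 CPM in control libraries. The measure takes in the size of the group difference and which replicate was higher, over 4 libraries.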

How the data were processed

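Polyadenylated RNA from 4 libraries was sequenced after oligo(dT) selection with an Illumina TruSeq kit, per the labels' protocols. The deposited values are whole-number counts of reads for each gene, beside exon positions and summed exon length, per the file headers. The submitters' processing notes name HISAT2, featureCounts, DESeq2 and mm10, with no version. Whether counting used strand, which annotation release it used and how it handled multiply matching reads is not given in the sources used here. Symbols came from GENCODE M21 (55141 identifiers matched, 260 did not), whose spans equalled those of the table for 54349 of the 54349 identifiers that matched with their version.

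Counts were fitted in R 4.3.3 with edgeR 4.0.16: filterByExpr (minimum count 10, minimum total 15), TMM scaling, a robust quasi-likelihood fit and test of Usp28 KO against control, Benjamini-Hochberg adjustment over all tested genes and a threshold of 0.05. DESeq2 1.42.0 and the other alternatives, among them a correction for transcript GC content by a spline with 5 degrees of freedom, are in the closing section. The fits were also run on simulated counts with known changes. That simulation gave all genes the same spread beyond counting error and no replicate effect, so it does not show how the fits perform on these libraries. CPM uses TMM-scaled library sizes, and TPM divides counts by the deposited exon length. Rhox6 values come from a fit with no filter. Pattern likeness used log2 CPM with a prior count of 2. Intervals of count ratios are exact binomial 95% intervals.

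The 4 genes and all gene lists were chosen with earlier results of these data known. The genes named are the 4 members, Usp28, the 4 of each list with the smallest unadjusted p, the nearest tested neighbours, and the 5 genes most like each tested member in pattern; 1 gene that the rule names is not reported here. The other Rhox genes with a read and the trophoblast genes given by a level at or near 0 were named after their values were seen. So were Krt7, Dlx3, Tfap2c, Tead4, Eomes, Peg10, Ets2, Zfp42, Tet1, Tet3, Dnmt1, Dnmt3b, Dnmt3l, Uhrf1 and the neighbours at the ends of a range.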

Additional observations from a re-analysis of the deposited data

How the results depend on the processing

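The log2 fold changes of the 4 genes kept their sign under every alternative that gave a value: 12 for Esx1 and Rhox5, 11 for Rhox9, which the filter of 50 counts in 2 libraries removes, and 10 for Rhox6, for which the filters were not varied. With 1 library left out they ran from 1.77 to 2.39 for Esx1, 1.23 to 1.59 for Rhox5, 1.42 to 2.10 for Rhox6 and 0.70 to 1.40 for Rhox9; the other alternatives moved each of them by less than the spread between replicates. With 2 libraries per group and fewer than 30 counts a control library for each gene, depth limits all 4, and Rhox6 and Rhox9 most.

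The counts of calls over all genes were unstable. In place of 0 higher and 0 lower, edgeR called 24 and 5 with library totals and 204 and 118 with no filter, and DESeq2 called 79 and 48; with a library left out the counts were 59 to 133 higher and 35 to 98 lower. Same-numbered libraries deviated together (correlation 0.354 over 15341 genes), but the labels do not say that a number marks a shared batch. With the replicate block edgeR called 965 higher and 716 lower, and with the GC correction and replicate block 1545 and 1564. In the lists, where the main count of calls was 0, the replicate block alone called 4 X-linked neighbours, 57 genes of chromosome X, 3 trophoblast, 1 silencing, 8 germ-line, 1 paired-like homeobox, 1 ETS, GATA and SP factor, 1 primitive endoderm and 5 pluripotency genes. With the GC correction and replicate block these counts were 8, 102, 2, 4, 11, 1, 1, 3 and 6 in the same order. For chromosome X the count was 1 with library totals, 8 with no filter, 2 by DESeq2 and 2 to 6 with a library left out. For germ-line genes it was 1, 2, 1 and 1 to 2 in the same order. For ETS, GATA and SP factors it was 1 with no filter, by DESeq2 and with any library left out. No other alternative moved a list's count; where a library was left out, the lone library of its group was assumed to vary like the others. The cause of these changes was not tested.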
